A study of Mus musculus with 11 samples.

Results

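The liver zonation marker genes are 10 genes whose names stand for the position of a hepatocyte in the liver lobule, out of 54232 genes counted in each library. The rule lists them by name and applies no threshold to the counts, and it was drawn up with earlier results of these data known. There are 6 pericentral members (*Glul*, *Oat*, *Axin2*, *Tbx3*, *Rhbg* and *Slc1a2*) and 4 periportal members (*Hal*, *Sds*, *Cdh1* and *Gls2*). All 10 passed the filter on low counts, which 13303 genes passed. RNA of hepatocytes purified on Percoll from adult male C57BL/6 mice was sequenced in 11 libraries. The *Xbp1* fl/fl mice carried floxed *Xbp1* alleles without Cre. The *Xbp1* LKO mice lacked exon 2 of *Xbp1* through a Cre driven by the albumin promoter, so the deletion was aimed at hepatocytes and was present before feeding began. For up to 6 weeks, mice of each genotype ate chow or the high fat sugar diet (HFS), which joins Western food to drinking water with fructose and glucose. There were 3 libraries of *Xbp1* fl/fl mice (fl/fl) and 2 of *Xbp1* LKO mice (LKO) on chow, and 3 of each genotype on the HFS diet. A chow library came from 1 mouse and an HFS library from a pool of 2 mice. The comparison asks whether the zonation of hepatocyte gene expression differed with genotype, with diet, or with both.

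Blood crosses the lobule from the portal vein to the central vein, and hepatocytes along this path divide the work of the liver. Wnt ligands and R-spondins made by endothelial and stellate cells near the central vein activate β-catenin in pericentral hepatocytes, which make glutamine and carry out much of the drug and bile acid metabolism. Periportal hepatocytes receive oxygen and nutrients first and are known for urea synthesis, gluconeogenesis and amino acid breakdown. XBP1, the factor absent from the *Xbp1* LKO hepatocytes, is a transcription factor of the unfolded protein response.

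Promoter sequences of 5 of the 10 members were found in the RefSeq table of mouse promoters (build GRCm38.p6), each with 250 bases before and 50 bases from the annotated start. Those of *Glul*, *Oat*, *Slc1a2* and *Hal* are printed because these genes had the highest levels among the members with a promoter and lie on both sides of the lobule. Both strands were searched for the TCF/LEF core as CTTTGA or CTTTGT, the core ACGTG of XBP1 and ATF6 sites, and the TATA box TATAAA. Sequences read 5′ to 3′ on the strand of the gene, and capitals mark a match on either strand, the reverse complement of the motif being shown where it is on the other.
Glul, chr1:153899679-153899978, plus strand: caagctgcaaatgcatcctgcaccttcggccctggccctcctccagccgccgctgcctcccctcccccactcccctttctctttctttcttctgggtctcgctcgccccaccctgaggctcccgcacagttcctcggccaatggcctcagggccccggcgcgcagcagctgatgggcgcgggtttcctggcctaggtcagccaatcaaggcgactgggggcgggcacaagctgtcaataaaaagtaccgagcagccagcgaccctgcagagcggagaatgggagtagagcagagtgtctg
Oat, chr7:132576349-132576648, minus strand: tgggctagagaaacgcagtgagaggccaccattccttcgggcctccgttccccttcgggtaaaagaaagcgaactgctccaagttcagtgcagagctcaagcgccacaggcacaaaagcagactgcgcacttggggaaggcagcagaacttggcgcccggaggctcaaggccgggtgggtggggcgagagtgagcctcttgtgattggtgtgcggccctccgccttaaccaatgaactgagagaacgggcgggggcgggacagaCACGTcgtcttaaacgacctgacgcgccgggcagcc
Slc1a2, chr2:102706188-102706487, plus strand: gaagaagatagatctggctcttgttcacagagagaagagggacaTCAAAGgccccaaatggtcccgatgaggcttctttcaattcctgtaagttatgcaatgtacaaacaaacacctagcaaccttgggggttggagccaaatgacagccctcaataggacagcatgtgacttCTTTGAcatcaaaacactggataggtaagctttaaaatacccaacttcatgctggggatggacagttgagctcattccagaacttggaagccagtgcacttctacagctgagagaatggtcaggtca
Hal, chr10:93488518-93488817, plus strand: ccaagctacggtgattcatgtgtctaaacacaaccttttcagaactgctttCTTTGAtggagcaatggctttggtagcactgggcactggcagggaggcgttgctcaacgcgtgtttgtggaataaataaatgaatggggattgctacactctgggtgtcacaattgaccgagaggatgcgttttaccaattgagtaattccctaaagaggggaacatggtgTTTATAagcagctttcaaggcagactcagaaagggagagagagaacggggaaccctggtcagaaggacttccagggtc
The *Slc1a2* sequence holds CTTTGA at 2 places, with the first base at -206 on the other strand and at -77 on the gene's strand. Its start in RefSeq lies inside the gene as GENCODE draws it, from base 102658659, so it belongs to an alternative start. *Hal*, a periportal member, holds CTTTGA at -199 and a TATA box at -28 on the other strand. *Oat* holds ACGTG on the other strand at 15 bases from the start, counting the start base as 1. The printed *Glul* window and the *Axin2* window held none of the 4 motifs. Such letters are common: of 32851 mouse promoters of the same length, 16% held CTTTGA, 18.7% CTTTGT, 19.6% ACGTG and 13.6% TATAAA. A match describes the letters of the window and says nothing of binding.

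The total was 19191032 to 23888401 counts per library. *Xbp1* itself, the deleted gene, was at 194, 200.3 and 221 CPM (normalized read counts, scaled by TMM to an equal library size) in fl/fl libraries on chow and at 95.7 and 128 CPM in LKO libraries on chow. On the HFS diet it was at 301, 295 and 242 CPM in *Xbp1* fl/fl and at 117, 97.3 and 135 CPM in *Xbp1* LKO libraries. No LKO library reached the level of any fl/fl library, and the count covers the whole gene, so transcripts without exon 2 are still counted. The levels of 10 hepatocyte markers, the albumin gene *Alb* among them, were summed. The sum was 138000 to 174000 CPM in fl/fl mice on chow and 46800 and 75400 CPM in LKO mice on chow. On HFS it was 116000 to 130000 CPM in fl/fl mice and 63200 to 91100 CPM in LKO libraries. *Alb* alone took 8.06% to 10.9%, 1.67% and 3.72%, 5.88% to 7.42% and 3.33% to 5.4% of the counts in the same order. Between genotypes, the median log2 fold change of the 10 markers was -0.66 on chow and -0.44 on the HFS diet. Of the 2 LKO libraries on chow, replicate 2 had the lower *Alb* share and stood farther from the *Xbp1* fl/fl libraries for every member except *Oat*. The part of these differences in the results was not tested. The libraries hold RNA of many cells, so fewer cells of a zone and less RNA per cell cannot be told apart.

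Loss of XBP1 went with higher pericentral and lower periportal marker expression on both diets. In chow-fed mice, all 6 pericentral members rose and all 4 periportal members fell in *Xbp1* LKO hepatocytes, at an adjusted p under 0.05 (quasi-likelihood test of edgeR, Benjamini-Hochberg over all genes tested). Of all genes tested, 4.75% were called in this comparison, 1.73% as higher and 3.02% as lower. On the HFS diet, 5 pericentral members rose and 2 periportal members fell, while *Tbx3*, *Cdh1* and *Gls2* did not pass the test. The share of all genes called there was 4.08%, with 1.92% higher and 2.16% lower. DESeq2, the tool of the study, called all 10 members on the HFS diet, beside 1007 of all genes. The median log2 fold change of the pericentral members was 2.27 on chow and 1.70 on the HFS diet, and that of the periportal members was -2.55 and -1.82, beside medians over all genes tested of 0.0024 and 0.0083. Each of the 10 members separated the genotypes on each diet with no overlap between libraries, which 31.3% of all genes did on chow (15.4% higher, 15.9% lower) and 26.1% on the HFS diet (13.6% higher, 12.5% lower). Across diets, the 5 *Xbp1* LKO libraries lay above all 6 *Xbp1* fl/fl libraries for every pericentral member and below them for every periportal member, as did 3.19% and 4.34% of all genes (7.53% in either direction). Without replicate 2 or without replicate 3 of the LKO group on HFS, 4 of the 10 members (*Glul*, *Oat*, *Rhbg* and *Slc1a2*) were called on the HFS diet. Over the 11 fits that each left out 1 library, 184 to 662 of all genes were called there, against 543 in the full fit. Without replicate 2 of the LKO group on chow fewer members were called on chow, as were fewer of all genes. That fit held 1 LKO library, which was assumed to vary like the other groups. Over the 11 fits the log2 fold changes on chow were 0.94 to 4.31 for pericentral and -4.08 to -1.45 for periportal members. The sign of the genotype difference was the same for each member under each of the 20 alternatives run.

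**Figure D1:**
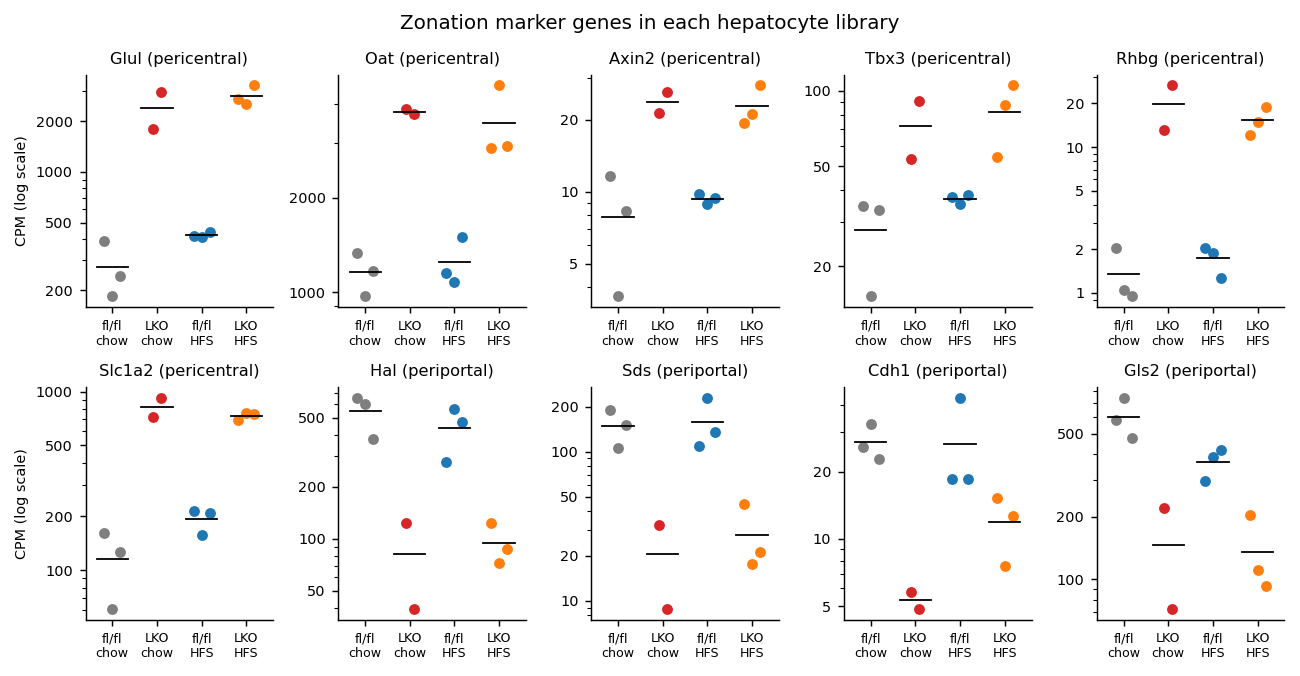
Normalized expression of the 10 zonation marker genes in CPM on a log scale, 1 point per library, with a line at the mean of each group. For the pericentral members every *Xbp1* LKO point lies above every *Xbp1* fl/fl point, and for the periportal members every one lies below.

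Glutamine synthetase, encoded by *Glul* (ENSMUSG00000026473, chromosome 1, 153899944 to 153909723 of GRCm38, plus strand), joins ammonia to glutamate in the last hepatocytes before the central vein. *Glul* was at 390, 183 and 243 CPM in fl/fl libraries on chow and at 1800 and 2956 CPM in LKO libraries on chow. HFS-fed libraries had 418, 414 and 442 CPM in the *Xbp1* fl/fl group against 2718, 2519 and 3269 CPM in the *Xbp1* LKO group. On both diets the lowest *Xbp1* LKO library was far above the highest *Xbp1* fl/fl library. The rise was 8.74-fold on chow (log2 fold change 3.13, SE 0.30, adjusted p = 0.0013) and 6.67-fold on the HFS diet (2.74, SE 0.28, adjusted p = 0.0014). Per kilobase of exon, *Glul* went from 81.9 ± 32.0 (SD, n = 3) to 715 ± 246 CPM per kb (SD, n = 2) on chow, and from 128 ± 4.44 to 853 ± 117 CPM per kb (SD, n = 3 each) on the HFS diet.

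Ornithine aminotransferase, encoded by *Oat* (ENSMUSG00000030934, chromosome 7, 132557478 to 132576398, minus strand), converts ornithine to the semialdehyde of glutamate and shares the pericentral cells with glutamine synthetase. Its level in fl/fl libraries on chow was 1333, 968 and 1168 CPM, and in LKO libraries on chow 3848 and 3696 CPM. In HFS-fed mice it was 1153, 1080 and 1497 CPM without and 2892, 4584 and 2939 CPM with the deletion. *Oat* rose 3.26-fold on chow (log2 fold change 1.71, SE 0.23, adjusted p = 0.0042) and 2.79-fold on the HFS diet (1.48, SE 0.21, adjusted p = 0.0040). It had the highest level per kilobase of the 10 members in each of the 4 groups, 490 ± 77.5 CPM per kb (SD, n = 3) in fl/fl mice on chow and 1598 ± 45.6 CPM per kb (SD, n = 2) in LKO libraries on chow.

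*Rhbg* and *Slc1a2* encode transporters that bring the substrates of glutamine synthesis into the cell. *Rhbg* (ENSMUSG00000104445, chromosome 3, 88242874 to 88254709, minus strand), an ammonia transporter of the Rh family, was low in *Xbp1* fl/fl hepatocytes, at 2.04, 1.04 and 0.946 CPM on chow and 2.05, 1.88 and 1.27 CPM on the HFS diet. In *Xbp1* LKO libraries it stood at 13.1 and 26.6 CPM on chow and at 12.0, 14.9 and 18.9 CPM on the HFS diet. Among the members *Rhbg* had the largest fitted change, 14.8-fold on chow (log2 fold change 3.88, SE 0.38, adjusted p = 0.0013) and 8.77-fold on the HFS diet (3.13, SE 0.34, adjusted p = 0.0016), from raw counts of 18 to 608 per library. *Slc1a2* (ENSMUSG00000005089, chromosome 2, 102658659 to 102790784, plus strand), a glutamate transporter better known from astrocytes, was at 161, 60.6 and 126 CPM in fl/fl mice on chow and at 724 and 923 CPM in LKO libraries on chow. On the HFS diet, *Slc1a2* was at 214, 158 and 210 CPM in *Xbp1* fl/fl and at 692, 757 and 754 CPM in *Xbp1* LKO libraries. The *Slc1a2* groups were far apart, with a rise of 7.10-fold on chow (log2 fold change 2.83, SE 0.31, adjusted p = 0.0016) and 3.78-fold on the HFS diet (1.92, SE 0.29, adjusted p = 0.0046).

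*Axin2* and *Tbx3* are targets of β-catenin; the first encodes a scaffold of the complex that degrades β-catenin and the second a T-box transcription factor. *Axin2* (ENSMUSG00000000142, chromosome 11, 108920349 to 108950783, plus strand) was at 11.6, 3.64 and 8.27 CPM in fl/fl mice on chow and at 21.4 and 26.0 CPM in LKO libraries on chow. HFS-fed mice had *Axin2* at 9.76, 8.86 and 9.40 CPM in the *Xbp1* fl/fl group and at 19.4, 21.1 and 27.9 CPM in the *Xbp1* LKO group. *Axin2* thus rose 3.01-fold on chow (log2 fold change 1.59, SE 0.33, adjusted p = 0.020) and 2.44-fold on the HFS diet (1.29, SE 0.30, adjusted p = 0.036), a smaller rise than those of *Glul*, *Rhbg* and *Slc1a2*. *Tbx3* (ENSMUSG00000018604, chromosome 5, 119670669 to 119684724, plus strand) was at 34.8, 15.1 and 33.3 CPM in fl/fl mice on chow and at 53.5 and 91.0 CPM in LKO libraries on chow. In HFS-fed libraries *Tbx3* had 37.8, 35.3 and 38.3 CPM against 54.1, 87.3 and 105 CPM. The 2.60-fold difference of *Tbx3* on chow passed the test (log2 fold change 1.38, SE 0.34, adjusted p = 0.044), and the 2.21-fold difference on the HFS diet did not (1.15, SE 0.31, adjusted p = 0.068). *Tbx3* was the least secure of the members, called on chow in 9 of the 20 alternatives. *Tbx3os1*, annotated on the opposite strand with shared exon bases, also rose (log2 fold change 2.36, SE 0.38, adjusted p = 0.0063 on chow; 2.22, SE 0.35, adjusted p = 0.0065 on the HFS diet). The sources do not state whether strand was used in counting, so reads of the pair may not have been told apart.

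Among the periportal members, *Hal* (ENSMUSG00000020017, chromosome 10, 93488768 to 93519304, plus strand) encodes histidine ammonia-lyase, which starts the breakdown of histidine. It was at 654, 605 and 380 CPM in fl/fl mice on chow and at 123 and 39.2 CPM in LKO libraries on chow. HFS-fed mice had *Hal* at 280, 564 and 474 CPM and at 124, 72.2 and 87.9 CPM in the same order of genotypes. The *Hal* level was 6.72-fold lower on chow (log2 fold change -2.75, SE 0.49, adjusted p = 0.011) and 4.64-fold lower on the HFS diet (-2.21, SE 0.41, adjusted p = 0.013). *Sds* (ENSMUSG00000029597, chromosome 5, 120476526 to 120483932, plus strand) encodes serine dehydratase, which turns serine into pyruvate. Its level was 189, 106 and 151 CPM in fl/fl mice on chow and 32.3 and 8.78 CPM in LKO libraries on chow. On the HFS diet *Sds* was at 109, 230 and 136 CPM in *Xbp1* fl/fl and at 44.4, 17.7 and 21.3 CPM in *Xbp1* LKO libraries. *Sds* was 7.24-fold lower on chow (log2 fold change -2.86, SE 0.58, adjusted p = 0.019) and 5.70-fold lower on the HFS diet (-2.51, SE 0.49, adjusted p = 0.017). Both genes that overlap *Sds* on the opposite strand and passed the filter fell too. Both were picked, like *Tbx3os1*, because they share exon bases with a member, and after their values were seen. *Gm15690* had log2 fold changes of -3.35 and -2.77 (adjusted p = 0.025 and 0.022), and *Plbd2*, a phospholipase-like gene, of -1.26 and -1.65 (adjusted p = 0.0072 and 0.0016), on chow and on the HFS diet. *Teddm2*, which shares exon bases with *Glul* on the opposite strand, did not pass on either diet. Its log2 fold changes were 1.34 on chow and 0.835 on the HFS diet (adjusted p = 0.058 and 0.20). *Spryd4*, which shares exon bases with *Gls2* on the opposite strand, did not pass either (-0.19 and -0.38, adjusted p = 0.53 and 0.14).

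*Gls2* and *Cdh1* fell on chow, and on the HFS diet neither passed the test. *Gls2* (ENSMUSG00000044005, chromosome 10, 128194457 to 128210004, plus strand) encodes the liver glutaminase, which releases ammonia from glutamine for the urea cycle. Chow-fed *Xbp1* fl/fl libraries had *Gls2* at 581, 745 and 478 CPM and LKO libraries on chow at 220 and 72.0 CPM. fl/fl libraries on HFS had it at 298, 385 and 419 CPM and LKO libraries on HFS at 204, 111 and 92.9 CPM. Its level was 4.12-fold lower on chow (log2 fold change -2.04, SE 0.46, adjusted p = 0.029), and the fitted log2 fold change on the HFS diet was -1.43 (SE 0.39, adjusted p = 0.065). *Cdh1* (ENSMUSG00000000303, chromosome 8, 106603351 to 106670246, plus strand) encodes E-cadherin, the junction protein of periportal hepatocytes and of bile duct cells. *Cdh1* was at 25.9, 32.6 and 22.8 CPM in fl/fl mice on chow and at 5.76 and 4.85 CPM in LKO libraries on chow. With HFS feeding *Cdh1* was at 18.6, 42.9 and 18.6 CPM in *Xbp1* fl/fl and at 15.3, 7.59 and 12.7 CPM in *Xbp1* LKO libraries, so that the groups came close without overlapping. *Cdh1* fell 5.10-fold on chow (log2 fold change -2.35, SE 0.41, adjusted p = 0.0098), and its log2 fold change on the HFS diet was -1.17 (SE 0.33, adjusted p = 0.077). Of 10 markers of bile duct cells 3 passed the filter, and the summed level of all 10 was 25.3 to 32.6 CPM in fl/fl and 22 and 26.3 CPM in LKO libraries on chow, and 18.7 to 35.5 CPM and 30.1 to 36.9 CPM on the HFS diet. *Spp1* had log2 fold changes of -0.47 on chow and 1.35 on the HFS diet (adjusted p = 0.74 and 0.20). *Sox9* fell on chow (log2 fold change -1.54, SE 0.31, adjusted p = 0.017) and was at -0.78 on the HFS diet (SE 0.27, adjusted p = 0.14). The defining markers *Krt7*, *Krt19*, *Epcam* and *Cftr* were at most 0.112, 0.149, 0.446 and 0.112 CPM in any library. These markers were picked after their values were seen.

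**Figure D2:**
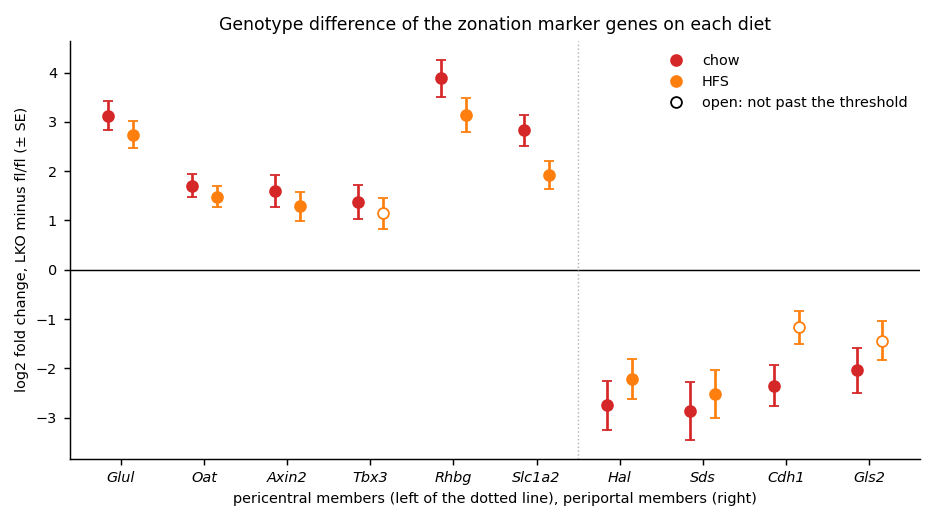
Log2 fold change of each zonation marker gene between *Xbp1* LKO and *Xbp1* fl/fl hepatocytes on chow and on the HFS diet, with bars of 1 SE and open points for differences that did not pass the test. Pericentral members lie at 1.15 to 3.88 and periportal members at -2.86 to -1.17.

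Glutamine synthesis and glutamine breakdown sit at opposite ends of the lobule, and on chow *Glul* rose and *Gls2* fell, while on the HFS diet *Glul* rose and *Gls2* did not pass the test. The ratio of *Glul* to *Gls2*, both per kilobase, was 0.702, 0.257 and 0.532 in fl/fl mice on chow and 8.55 and 42.9 in LKO libraries on chow. It was 1.47, 1.12 and 1.10 in fl/fl mice on HFS and 13.9, 23.7 and 36.8 in LKO libraries on HFS. In every *Xbp1* LKO library *Glul* was the more abundant of the pair, and in every fl/fl library on chow *Gls2* was. The mean log2 CPM of the 6 pericentral members was 5.49 ± 0.56 (SD, n = 3) in fl/fl mice on chow, 7.94 ± 0.36 (SD, n = 2) in LKO mice on chow, 5.98 ± 0.077 (SD, n = 3) in fl/fl mice on HFS and 7.90 ± 0.22 (SD, n = 3) in LKO libraries on HFS. That of the 4 periportal members was 7.55 ± 0.21, 4.90 ± 0.95, 7.27 ± 0.46 and 5.43 ± 0.52 in the same order and with the same numbers. These levels carry no test, for the reason given for the rule. Within the *Xbp1* LKO libraries the spread was wider on the periportal than on the pericentral side, and replicate 2 of the chow-fed group held the highest pericentral level, 8.20, with the lowest periportal level, 4.23.

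**Figure D3:**
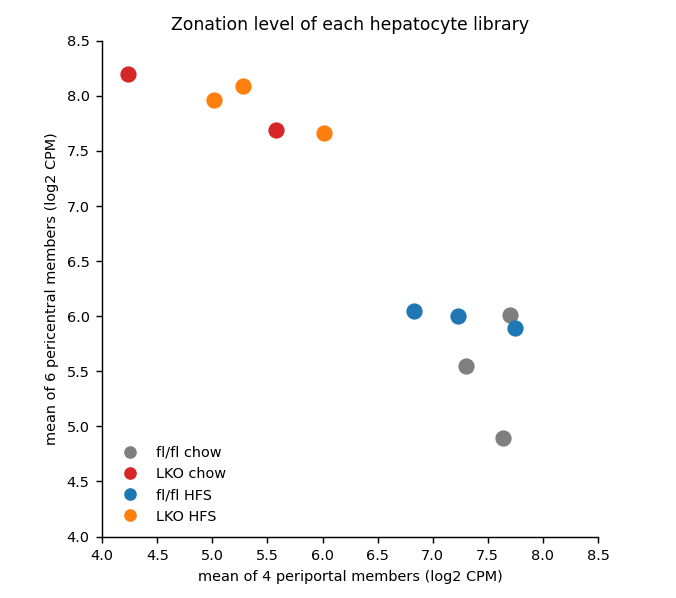
Mean log2 CPM of the 6 pericentral members (vertical axis) against that of the 4 periportal members (horizontal axis), 1 point per library, colored by group. The 5 *Xbp1* LKO libraries lie at 7.66 to 8.20 and 4.23 to 6.01, and the 6 *Xbp1* fl/fl libraries at 4.90 to 6.04 and 6.83 to 7.75.

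No member passed the threshold for diet. A chow library was 1 mouse and an HFS library a pool of 2 mice, so diet and pooling cannot be told apart. For HFS feeding, 0 of 10 members were called in *Xbp1* fl/fl and 0 of 10 in *Xbp1* LKO hepatocytes by edgeR, as by DESeq2. The shares of all genes called by edgeR were 0.428% and 0.0601%. At these shares a list of 10 genes holds few calls, so the 0 is not read as a result about the members. In fl/fl mice 6 of 6 pericentral and 1 of 4 periportal members had positive estimates, and in LKO mice 2 of 6 and 3 of 4. At an unadjusted p under 0.05 there were 2 members in *Xbp1* fl/fl and 1 in *Xbp1* LKO hepatocytes. In *Xbp1* fl/fl mice these were *Glul* (log2 fold change 0.64, 95% interval 0.07 to 1.21, adjusted p = 0.50) and *Slc1a2* (0.74, 95% interval 0.13 to 1.36, adjusted p = 0.44). In *Xbp1* LKO mice it was *Cdh1*, higher on the HFS diet by 1.16 on the log2 scale (95% interval 0.28 to 2.04, adjusted p = 0.29). The test of the interaction, whether the genotype difference depended on diet, called 0 members and 0% of all genes. It gave 1 member at an unadjusted p under 0.05, again *Cdh1* (difference of log2 fold changes 1.18, 95% interval 0.06 to 2.31, adjusted p = 0.79). For *Slc1a2* the interaction was -0.91 (95% interval -1.82 to 0.00, adjusted p = 0.81). Over all genes 816 had an unadjusted interaction p under 0.05, and DESeq2 called 29, none of them a member. All 6 pericentral members had a negative and all 4 periportal members a positive interaction estimate, each genotype difference being fitted as smaller on the HFS diet, but the signs for *Axin2*, *Glul*, *Hal*, *Sds* and *Tbx3* turned when single libraries were left out. The intervals were wide, for *Sds* from -1.19 to 1.88, and the missing calls do not show that the genotype difference was equal on both diets.

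Other genes known by zone were examined from 2 lists, chosen like the members with earlier results of these data known. Of 24 other pericentral genes, 11 rose and 0 fell on chow and 9 rose and 0 fell on the HFS diet. Their median log2 fold changes were 0.76 and 0.60. Of all genes tested, 1.73% were called higher and 3.02% lower on chow, and 1.92% and 2.16% on the HFS diet. *Slc22a3*, an organic cation transporter, rose 12.8-fold on chow (log2 fold change 3.67, SE 0.33, adjusted p = 0.0013) and 10.4-fold on the HFS diet (3.38, SE 0.31, adjusted p = 0.00087), more than any member except *Rhbg* on chow. *Lgr5*, an R-spondin receptor and β-catenin target, rose 6.98-fold and 2.99-fold (adjusted p = 0.0016 and 0.0079). *Lhpp*, a phosphatase gene, rose 2.90-fold and 2.41-fold (adjusted p = 0.0042 and 0.0052). *Gulo*, which makes the last step of vitamin C synthesis, rose 2.25-fold on chow (adjusted p = 0.0025) and by a log2 fold change of 0.72 on the HFS diet (adjusted p = 0.0100). *Gulo* was also the only gene of all the lists called for diet, 1.67-fold higher on the HFS diet in *Xbp1* fl/fl hepatocytes (adjusted p = 0.039). That call for diet was lost in 8 of the 11 fits that each left out 1 library. On the HFS diet the glutathione transferase gene *Gstm3* rose 5.47-fold (adjusted p = 0.0027), and on chow it was at a log2 fold change of 1.09 (adjusted p = 0.090). *Nkd1*, an inhibitor of Wnt signaling that Wnt induces, rose on both diets, by a log2 fold change of 1.94 on chow (adjusted p = 0.031) and 5.91-fold on the HFS diet (adjusted p = 0.0046). Several classical pericentral enzymes did not pass the test. *Cyp2e1* had log2 fold changes of -0.08 and -0.61 (adjusted p = 0.89 and 0.13), *Cyp1a2* of 0.14 and -0.31 (0.86 and 0.67), and *Cyp7a1*, the rate-limiting enzyme of bile acid synthesis, of 0.92 and 0.14 (0.53 and 0.95). These 3 enzymes are named for their place in the literature and were picked after their values were seen.

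Of 20 other periportal genes, 10 fell and 0 rose on chow and 5 fell and 0 rose on the HFS diet. Their median log2 fold changes were -1.22 and -0.995. The shares of all genes called lower were 3.02% on chow and 2.16% on the HFS diet. *Cyp2f2*, the cytochrome P450 often used to stain the periportal zone, was at 1095 to 1869 CPM in fl/fl mice on chow and at 66.8 and 197 CPM in LKO libraries on chow. It fell 11.3-fold on chow (log2 fold change -3.49, SE 0.54, adjusted p = 0.0056) and 4.87-fold on the HFS diet (-2.28, SE 0.43, adjusted p = 0.014). The protease gene *Ctsc* fell 13.8-fold on chow (adjusted p = 0.0045) and, with a log2 fold change of -1.76, on the HFS diet (adjusted p = 0.040). *Sdsl*, a relative of *Sds*, fell 6.65-fold and 3.81-fold (adjusted p = 0.0056 and 0.012), and *Hsd17b13*, a lipid droplet protein, fell 7.32-fold on chow (adjusted p = 0.011), with a log2 fold change on the HFS diet of -1.20 that did not pass (adjusted p = 0.15). *Arg1*, the arginase of the urea cycle, fell on chow (log2 fold change -1.40, adjusted p = 0.040) and 2.40-fold on the HFS diet (adjusted p = 0.038). *Agxt* fell 1.76-fold on the HFS diet (adjusted p = 0.039), and its log2 fold change on chow was -0.61 (adjusted p = 0.14). The gluconeogenic genes *Pck1* (log2 fold change -0.44 on chow and -0.34 on the HFS diet), *G6pc* (-0.53 and -0.45) and *Fbp1* (-0.08 and 0.30) did not pass the test on either diet, nor did the urea cycle genes *Ass1* (-0.77 and -0.99) and *Cps1* (-0.66 and -1.34), all picked after their values were seen. Without replicate 2 of the LKO group on chow, fewer genes of both lists were called on chow, as were fewer of all genes. The spread was then taken from the other groups, since 1 LKO library was left. Without replicate 2 or without replicate 3 of the LKO group on HFS, 1 other periportal gene was called on the HFS diet.

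**Figure D4:**
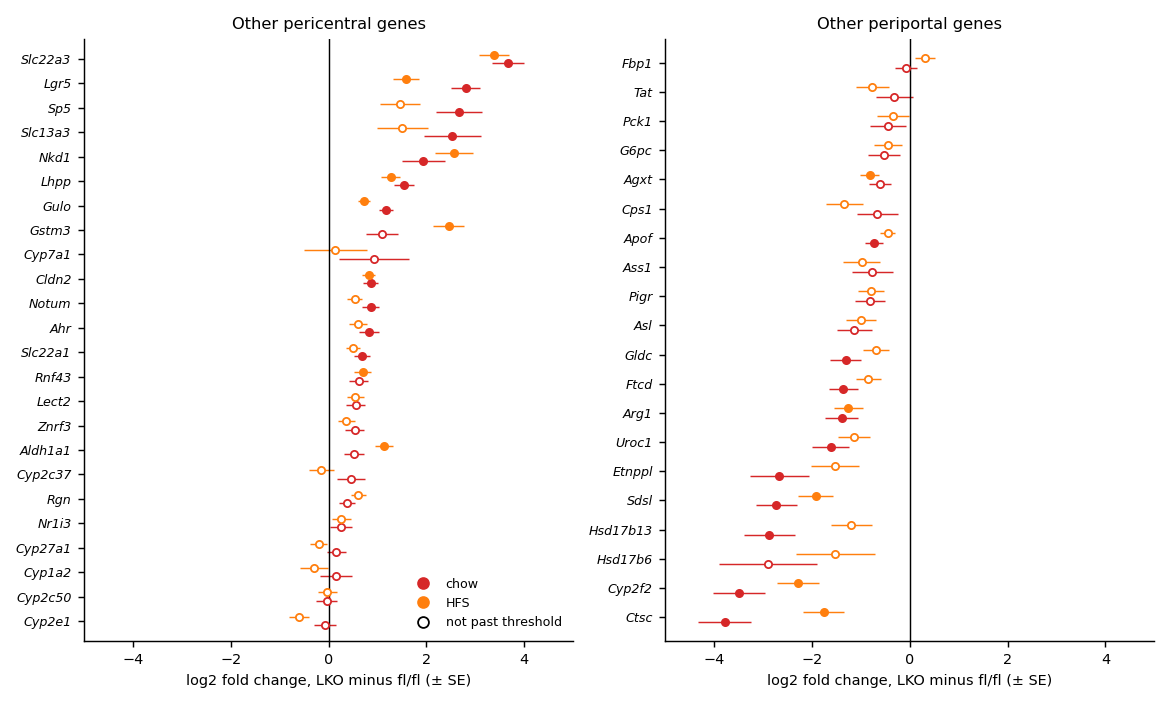
Log2 fold change between *Xbp1* LKO and *Xbp1* fl/fl hepatocytes of 24 other pericentral genes (left) and 20 other periportal genes (right) on each diet, with bars of 1 SE, ordered by the value on chow and open where the test was not passed. The medians on chow are 0.76 and -1.22.

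Genes of the Wnt pathway, which sets the pericentral program, were examined by their roles. This list too was chosen with earlier results of these data known. Of 42 listed genes 37 were tested. Over all genes tested, 1.73% were called higher and 3.02% lower on chow, and 1.92% and 2.16% on the HFS diet. On chow 7 rose and 2 fell, and on the HFS diet 5 rose and 1 fell, with medians of 0.20 and 0.05. The lists overlap, so these counts are not separate evidence: *Lgr5*, *Nkd1*, *Sp5*, *Notum*, *Rnf43* and *Znrf3* are also among the other pericentral genes. The ligands were near the floor of these hepatocyte libraries. *Wnt2* was at 0.256 to 1.75 CPM and *Rspo3* at 0.049 to 1.02 CPM over the 11 libraries, with log2 fold changes on chow of -0.72 (SE 0.60, adjusted p = 0.56) and -0.31 (SE 1.06, adjusted p = 0.91), and *Wnt9b*, at most 0.611 CPM, did not pass the filter. Of the receptors, *Fzd7* rose 2.16-fold on chow and 1.79-fold on the HFS diet (adjusted p = 0.013 and 0.031), while *Lgr4*, the other R-spondin receptor expressed here, fell by 0.63 and by 0.52 on the log2 scale (adjusted p = 0.021 and 0.030). *Lgr5* was at 2.25 to 4.86 CPM in fl/fl mice on chow, 19.6 and 32.7 CPM in LKO mice on chow, 6.22 to 7.38 CPM in fl/fl mice on HFS and 16.0 to 24.8 CPM in LKO libraries on HFS. Of the genes for β-catenin, its destruction complex and its DNA-binding partners, some passed the test and others did not. *Ctnnb1*, β-catenin itself, had log2 fold changes of -0.03 (SE 0.12, adjusted p = 0.92) and 0.05 (SE 0.10, adjusted p = 0.86), and *Apc*, of the destruction complex, of 0.04 (SE 0.14, adjusted p = 0.91) and -0.02 (SE 0.12, adjusted p = 0.96). *Tcf7l2*, the main TCF factor of hepatocytes, was at 0.21 (SE 0.18, adjusted p = 0.59) and -0.01 (SE 0.17, adjusted p = 0.99), whereas *Tcf7l1*, often a repressor of Wnt targets, fell 6.82-fold on chow (log2 fold change -2.77, SE 0.35, adjusted p = 0.0035). On the HFS diet *Tcf7l1* was at -0.99 and did not pass (SE 0.28, adjusted p = 0.076). *Tcf7*, another TCF factor, rose on chow (log2 fold change 1.04, SE 0.26, adjusted p = 0.044) and on the HFS diet (0.95, SE 0.23, adjusted p = 0.047), and *Bcl9l*, a co-activator of β-catenin, rose on chow (0.48, SE 0.12, adjusted p = 0.045) and was at 0.04 on the HFS diet (SE 0.11, adjusted p = 0.89). *Tcf7* and *Bcl9l* were picked after their values were seen. Among targets and feedback genes *Sp5* rose 6.34-fold on chow (log2 fold change 2.67, SE 0.47, adjusted p = 0.0099) and was at 1.46 on the HFS diet without passing (SE 0.41, adjusted p = 0.076). Of the 2 ubiquitin ligases that remove Wnt receptors, *Rnf43* rose on the HFS diet (log2 fold change 0.70, SE 0.17, adjusted p = 0.049) but did not pass on chow (0.61, SE 0.19, adjusted p = 0.10). *Znrf3* had values of 0.54 and 0.36 that did not pass (adjusted p = 0.15 and 0.32). Without replicate 2 of the LKO group on chow, fewer Wnt pathway genes were called on chow, again with 1 LKO library and the spread of the other groups.

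**Figure D5:**
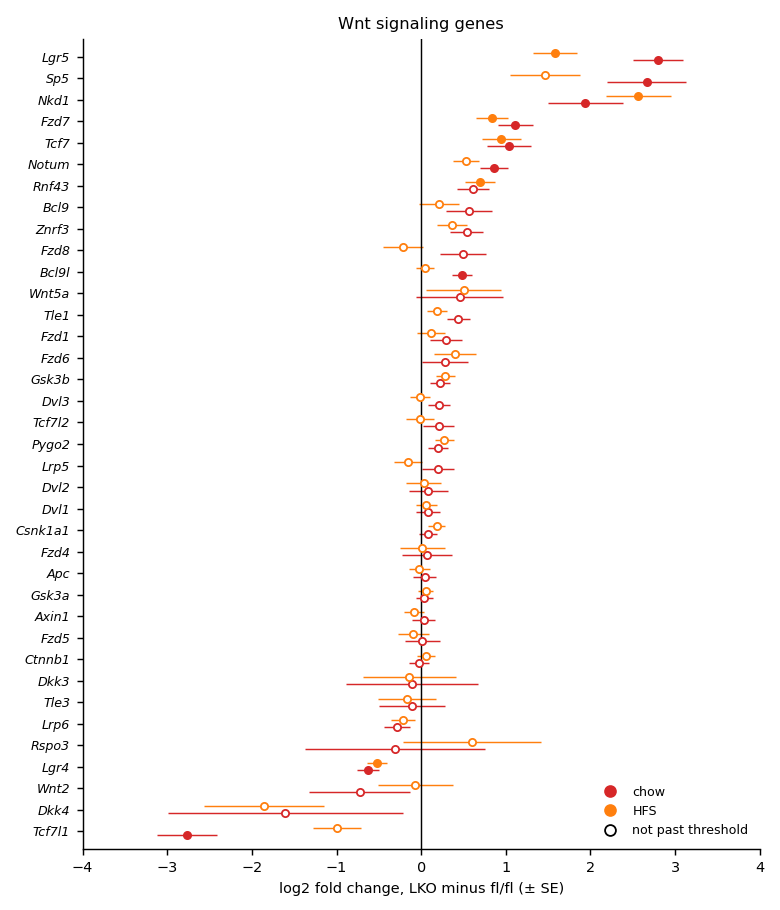
Log2 fold change between *Xbp1* LKO and *Xbp1* fl/fl hepatocytes of the 37 tested Wnt pathway genes on each diet, with bars of 1 SE, ordered by the value on chow and open where the test was not passed. *Lgr5*, *Sp5* and *Nkd1* stand at the top, *Tcf7l1* at the bottom, and *Ctnnb1*, *Apc* and *Tcf7l2* near 0.

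Markers of the cells known to make these ligands varied between groups as well. The summed level of 12 endothelial markers was 45.3 to 117 CPM in fl/fl mice on chow, 28.9 and 37.5 CPM in LKO mice on chow, 92.6 to 159 CPM in fl/fl mice on HFS and 75.7 to 130 CPM in LKO libraries on HFS. That of 8 stellate markers was 11 to 33.3, 7.17 and 7.91, 18.6 to 32.0 and 23.0 to 49.7 CPM in the same order. None of the 11 tested endothelial and 7 tested stellate markers passed the test on either diet, though all of them had negative values on chow. On the HFS diet all 11 endothelial markers had negative values, and 6 of the 7 stellate markers had positive ones. The ligand genes *Wnt2* and *Wnt9b* are among the endothelial and *Rspo3* among the stellate markers. The part of these cells in the Wnt results was not tested.

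The pathways in which the members act were examined from lists of their partners, also chosen with earlier results known. Over all genes tested, 1.73% were called higher and 3.02% lower on chow, and 1.92% and 2.16% on the HFS diet. Of 23 tested genes that handle glutamine, glutamate and ammonia, 3 rose on chow and 2 on the HFS diet and 0 fell. They were amino acid transporters: *Slc1a5* rose 8.59-fold and 6.58-fold (adjusted p = 0.025 and 0.049), *Slc1a4* 3.41-fold and 4.10-fold (adjusted p = 0.035 and 0.014), and *Slc7a5* 4.91-fold on chow (adjusted p = 0.026), from levels of 0.245 to 5.4 CPM in *Xbp1* fl/fl libraries. In the 11 fits that each left out 1 library, the *Slc1a5* call was lost in 3 on chow and in 8 on the HFS diet, that of *Slc1a4* in 6 and in 2, and that of *Slc7a5* in 3 on chow. Of 17 tested genes of histidine, serine and threonine metabolism beside *Hal* and *Sds*, 5 fell and 1 rose on chow, and 3 fell and 1 rose on the HFS diet. *Uroc1*, *Ftcd*, *Sdsl*, *Gldc* and *Agxt* are also counted among the other periportal genes. Those that fell included the later steps of histidine breakdown. *Amdhd1* fell 2.50-fold on chow and 2.41-fold on the HFS diet (adjusted p = 0.0060 and 0.0037). *Ftcd* fell 2.57-fold on chow (adjusted p = 0.025), and its log2 fold change of -0.85 on the HFS diet did not pass (adjusted p = 0.092). The gene that rose was *Psat1*, a step of serine synthesis, by 14.2-fold and 11.9-fold (adjusted p = 0.0074 and 0.011). Among 18 junction genes listed beside *Cdh1*, *Gjb1*, the connexin of hepatocyte gap junctions, fell 2.85-fold and 2.93-fold (adjusted p = 0.0073 and 0.0034), and *Cldn2*, a tight junction claudin, rose 1.82-fold and 1.76-fold (adjusted p = 0.011 and 0.0094). The other 16 did not pass on either diet. *Cldn2* is also counted among the other pericentral genes, and *Cps1* of the glutamine list among the other periportal genes. Of 14 genes of the glucagon and glucocorticoid axis, which favors the periportal program, 0 passed on either diet by edgeR, beside 4.75% and 4.08% of all genes. At these shares a list of 14 genes holds few calls, so the 0 is not read as a result about the axis. *Pck1*, *G6pc* and *Tat* of this list are also among the other periportal genes.

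The genes whose levels ran most closely with *Glul* and with *Hal* were sought by Pearson's r over the log2 CPM of the 11 libraries, among 11129 tested genes with a mean of at least 1 CPM. The libraries fall into the 2 genotypes, so r mostly describes that separation and is given as a description. Closest to *Glul* were *Glns-ps1* (r = 0.983), *Slc22a3* (0.98) and *Rhbg* (0.98). *Glns-ps1* is a glutamine synthetase pseudogene whose reads may be shared with *Glul*, so its count is uncertain. Closest to *Hal* were *Haao* (r = 0.988), an enzyme of tryptophan breakdown, *Hgfac* (0.981), which encodes the activator of hepatocyte growth factor, and *Sytl1* (0.973), which encodes a synaptotagmin-like protein. *Haao* went from a mean of 638 to 401 CPM on chow (log2 fold change -0.67, adjusted p = 0.032) and from 617 to 426 CPM on the HFS diet (-0.53, adjusted p = 0.052), a smaller change than that of *Hal*.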

How the data were processed

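Hepatocyte RNA (50 bp single-end reads) was sequenced in 11 libraries. The deposited values were whole-number counts per gene, not normalized. The study's methods describe kallisto, tximport and DESeq2, whereas the submitters' processing notes list cutadapt 1.13, STAR, HTSeq 0.6.1p1, DESeq2 and mm10, and which of them made the counts is not stated in the sources used here. Strand use in counting is not given either. Of 54232 gene identifiers 54165 matched GENCODE M21 (GRCm38). Counts were fitted with edgeR 4.0.16 (R 4.3.3) by the quasi-likelihood test, with TMM scaling, a minimum count of 10, 4 groups, 5 comparisons and Benjamini-Hochberg adjustment at 0.05. CPM for levels used these scaled totals, and log2 CPM a prior count of 2. The SE is the log2 fold change divided by the square root of F. DESeq2 1.42.0 was an alternative. On simulated data for the genotype comparison on chow, edgeR recovered 77.5% of 200 genes changed 4-fold among 13303, with 2 false calls. DESeq2 recovered 83.5%, with 24 false calls. Equal numbers of genes were raised and lowered there, unlike the calls on chow, so the simulation did not test the scaling. Intervals and p-values measure the spread between libraries, which were 1 mouse (chow) or pools of 2 mice (HFS). Alternatives were another scaling, filter, tool and sample set, the replicate block, and each library left out. TMM without *Alb* was added after the data were seen. The members and lists were chosen with earlier results of these data known. Named were the 10 members, *Xbp1* and *Alb*, 10 Wnt pathway genes, per list up to 4 called genes per genotype comparison by smallest p and up to 2 per diet comparison, and the 3 genes most correlated with *Glul* and with *Hal*. Other genes named were picked after their values were seen. Promoter sequences and motifs came from RefSeq (GRCm38.p6). The values of 1 tested bile duct marker are not reported here.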

Additional observations from a re-analysis of the deposited data

How the results depend on the processing

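*Glul*, *Oat*, *Rhbg* and *Slc1a2* passed the threshold in both genotype comparisons in 20 of 20 alternatives. On the HFS diet DESeq2 and no filter each called 10 members, and library totals and only the groups compared 9 each. All genes called there were 1007, 1438, 1483 and 809 in that order, against 543 in the main fit. On chow, only the groups compared gave 7 members. Leaving out single libraries gave 4 to 9 members on the HFS diet, beside 184 to 662 of all genes. On chow fewer members were called without replicate 2 of the LKO group, a fit with 1 LKO library. Libraries with the same replicate number came from different mice. For 15 pairs with the same title number, deviations from group means had a mean r of -0.009 (lowest -0.199, highest 0.231, 4 over 0.1). Pairs by file number were not examined, and whether the numbers mark a batch was not tested. The replicate block, run with title and with file numbers, gave 9 members on chow with either and 6 and 8 on the HFS diet. Genes called for diet in *Xbp1* LKO hepatocytes were 19 and 53 with these blocks, against 8 in the main fit. One chow-fed *Xbp1* LKO library has different numbers in its title and its file. With no filter 3 members were called for diet in *Xbp1* fl/fl, 1 in *Xbp1* LKO and 2 for the interaction. Scaling by library totals moved the median of all genes to 0.33 on chow and 0.268 on the HFS diet and the share of calls that were higher from 36.4% and 47.1% to 89.5% and 86.9%. Genes called on chow were 632 with edgeR, 1130 with DESeq2, 3000 with library totals, 1507 with no filter and 233 with only the groups compared. Of the other pericentral genes called on chow (11), library totals gave 17, only the groups compared 6 and the blocks 7 each, and on the HFS diet (9) DESeq2 gave 16, library totals 15 and no filter 15. Of the other periportal genes, only the groups compared gave 5 on chow (10), and on the HFS diet (5) DESeq2 gave 11, no filter 16 and the block by title numbers 3. Of the Wnt genes on chow (9), library totals gave 20 and only the groups compared 5, and on the HFS diet (6) library totals gave 11, no filter 11 and the blocks 3 each. The cause of these shifts was not tested. Across the replicate blocks, the diet effect in *Xbp1* LKO hepatocytes changed sign for *Axin2* (0.109), *Slc1a2* (0.024) and *Gls2* (0.037). Library totals moved the mean pericentral level of HFS-fed *Xbp1* fl/fl libraries to 5.859, and without *Cdh1* the periportal level was 8.481 in chow-fed and 8.153 in HFS-fed *Xbp1* fl/fl and 6.071 in HFS-fed *Xbp1* LKO libraries, with pericentral minus periportal at -2.996 and -2.173 in chow-fed and HFS-fed *Xbp1* fl/fl libraries. Leaving out each library in turn, log2 values that changed sign ranged as follows. For diet in *Xbp1* fl/fl mice they went from -0.089 to 0.638 for *Axin2*, from -0.544 to 0.182 for *Cdh1*, from -0.051 to 0.219 for *Oat* and from -0.282 to 0.297 for *Sds*. For diet in *Xbp1* LKO mice they went from -0.230 to 0.098 for *Axin2*, -0.687 to 0.912 for *Gls2*, -0.064 to 0.663 for *Glul*, -0.373 to 1.267 for *Hal*, -0.371 to 0.004 for *Oat*, -0.802 to 0.229 for *Rhbg*, -0.210 to 1.657 for *Sds*, -0.335 to 0.028 for *Slc1a2* and -0.15 to 0.629 for *Tbx3*. For the interaction they went from -0.696 to 0.031 for *Axin2*, -0.740 to 0.015 for *Glul*, -0.064 to 1.581 for *Hal*, -0.304 to 1.568 for *Sds* and -0.570 to 0.204 for *Tbx3*. No genotype difference of a member changed sign.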

Other observations

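*Fgfr2*, a receptor for fibroblast growth factors whose annotated span takes in *Oat* on the same strand without shared exon bases, fell in *Xbp1* LKO hepatocytes on chow (log2 fold change -4.34, SE 0.47, adjusted p = 0.0016 by edgeR) and on the HFS diet (-2.06, SE 0.34, adjusted p = 0.0076), the opposite direction to *Oat*. It was picked after its values were seen.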
